A study of Mus musculus with 87 samples.

Results

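Broad H3K27me3 domains that contain a Suz12 region were studied in mouse embryonic stem cells (ESC). Suz12 belongs to the core of PRC2, a Polycomb complex that represses genes and places methyl groups on a lysine of histone H3 to give the mark H3K27me3. PRC2 is recruited mostly to CpG-rich promoters, and over genes that specify body position and cell lineage the mark can spread into blocks that span whole gene clusters. Such genes are largely silent in ESC, and part of them is switched on when the cells differentiate. The domains were chosen by their ChIP-seq values: a region of the authors' deposited H3K27me3 list was a member if its end minus its start was 10000 bp or more and it shared at least 1 bp with a region of their deposited Suz12 list. Of the 6882 listed H3K27me3 regions, 329 met this rule (4.78%). Another 21 regions were as wide but held no Suz12 region, 2375 were narrower with a Suz12 region, and 4178 held no Suz12 region at all.

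The cells were of the line 129-B13, ESC kept in medium with 20% serum and LIF, and all groups were made from this 1 line; how many clones a genotype stands for is not given in the sources used here. RNA-seq of ESC covered wild type (WT, 3 samples), the full Suz12 knock-out (KO, 3), the knock-out carrying the long isoform (KO-L, 2) or the short isoform (KO-S, 2), rescues from the Rosa26 locus by the long (KO-L3D, 2) or short isoform (KO-S3D, 2) with a change named 3D in the labels, downstream of exon 4, cells in which exon 4 is always included (CSex4, 2) and cells in which exon 4 is deleted (Deltaex4, 2). Neuronal precursors (NP) were grown as embryoid bodies, given retinoic acid on day 4 and harvested on day 8, from WT (4 samples), KO, KO-L, KO-S, CSex4 and Deltaex4 cells (2 each). The ChIP-seq samples were ESC, so a domain is a feature of ESC also where RNA of NP is described. H3K27me3 was profiled in WT (3 samples), KO (3), CSex4 (2), Deltaex4 (3) and a sample labelled WTforSL (1). It was also profiled in samples labelled L and S (2 each) and L-3D and S-3D (1 each). Suz12 was profiled in WT (2), KO (2), CSex4 (1) and Deltaex4 (2). Both region lists are named WT, and the group WT was compared with is not stated. Expression enters as 13 tables of the authors' own comparisons, which give for each gene symbol a mean level over the libraries (baseMean, reads scaled by library size), a log2 fold change with its standard error (SE) and an adjusted p. Values of single samples were not analysed here, so each spread below is the SE in the authors' deposited table and no SD over samples can be given. Nothing states that samples of a group came from separate cultures, and the p-values then measure the spread between these samples, which may be technical.

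In the authors' deposited tables Suz12 RNA differed from WT by a log2 fold change of -1.82 ± 0.22 (SE) in ESC KO and -2.14 ± 0.33 in NP KO. It was -1.85 ± 0.28 in the samples labelled KO-L3D, a value close to that of the knock-out, and -0.06 ± 0.42 in KO-S3D. All 8 pluripotency markers were expressed in ESC (lowest baseMean 6620 in ESC KO vs WT), and the 8 neural precursor markers had baseMean of 424 to 4226 in NP KO vs WT. Summed over genes, baseMean lay between 26085140 and 31499803 in the 13 tables.

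Genes were placed in a domain by a listed start or, where none is listed, by either end of the gene. In all, 575 genes of the RefSeq gene table (GRCm38.p6, the same build as the mm10 named in the submitters' processing notes) were placed in 309 of the 329 domains, 379 by a listed start and 196 by an end, which need not be the start. Of the 575, 464 are in the expression tables (304 and 160); 333 of the 464 code for proteins. A gene is called a domain gene below if it is one of these 464, and it counts as higher or lower in a comparison where the authors' deposited table gives it an adjusted p below 0.05. The RefSeq promoter table held 489 starts of 379 genes inside the domains. The promoters of 4 of them are printed here, each from 250 bases before to 50 bases after the start, with CpG dinucleotides in capitals. Foxd3 (chr4:99656049-99656348, plus strand) and Olig2 (chr16:91225300-91225599, plus strand) are domain genes that rose in ESC KO, and Hoxa11 (chr6:52245761-52246060, minus strand) and Hoxa6 (chr6:52208623-52208922, minus strand) lie in the widest domain and moved in opposite directions in NP KO.
Foxd3: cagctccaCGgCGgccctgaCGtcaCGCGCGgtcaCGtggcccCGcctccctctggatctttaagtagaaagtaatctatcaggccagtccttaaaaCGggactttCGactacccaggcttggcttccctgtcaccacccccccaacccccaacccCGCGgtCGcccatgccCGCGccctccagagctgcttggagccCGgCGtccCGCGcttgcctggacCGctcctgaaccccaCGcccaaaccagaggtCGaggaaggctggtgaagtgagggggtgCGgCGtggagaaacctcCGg
Olig2: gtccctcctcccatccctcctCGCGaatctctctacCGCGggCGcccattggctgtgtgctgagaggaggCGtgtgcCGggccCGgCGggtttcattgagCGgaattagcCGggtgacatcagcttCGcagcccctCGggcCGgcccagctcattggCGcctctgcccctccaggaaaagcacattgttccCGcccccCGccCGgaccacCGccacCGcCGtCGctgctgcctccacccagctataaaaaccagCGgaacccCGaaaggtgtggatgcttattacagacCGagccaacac
Hoxa11: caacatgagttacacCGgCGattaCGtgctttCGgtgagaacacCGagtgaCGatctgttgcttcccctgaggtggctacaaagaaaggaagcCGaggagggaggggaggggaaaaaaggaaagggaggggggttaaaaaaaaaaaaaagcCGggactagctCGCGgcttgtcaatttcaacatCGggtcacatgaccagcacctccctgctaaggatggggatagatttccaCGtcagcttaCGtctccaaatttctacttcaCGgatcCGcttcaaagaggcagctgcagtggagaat
Hoxa6: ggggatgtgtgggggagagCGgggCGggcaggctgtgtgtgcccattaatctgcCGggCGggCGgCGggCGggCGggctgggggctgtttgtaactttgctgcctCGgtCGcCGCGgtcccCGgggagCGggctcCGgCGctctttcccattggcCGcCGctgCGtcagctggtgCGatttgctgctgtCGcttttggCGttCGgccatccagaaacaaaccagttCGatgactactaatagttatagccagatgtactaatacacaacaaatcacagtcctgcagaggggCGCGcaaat
The 4 sequences hold 25, 25, 15 and 26 CpG in that order, with CpG observed over expected of 0.79, 0.82, 0.79 and 0.92. Over the 489 promoters in broad domains the median was 16 CpG and 0.67 observed over expected, and 58.9% reached 0.6. Narrower regions with Suz12 held 1843 promoters with a median of 23 CpG, and 68.8% of them reached 0.6. Regions without Suz12 held 1405 promoters with a median of 18 CpG (56.1%), and all 32851 listed promoters had a median of 7 (35.8%). Domain promoters thus held more CpG than the listed promoters as a whole and fewer than promoters of the narrower Suz12 regions and of regions without Suz12. By observed over expected, their median of 0.67 lay between 0.74 in the narrower regions and 0.64 in regions without Suz12. Starts were listed for 17492 of 21900 protein-coding genes, so promoters of some domain genes are missing here. Promoters in 1 domain are neighbours, and these medians and shares carry no test.

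Broad domains made up 4.78% of the H3K27me3 list and 19.9% of its bases (5.81 Mb). Their median width was 14958 bp, from 10039 to 119430 bp, against 4834 bp for the narrower regions with Suz12. At the edge of the rule, the last domains inside were those of Bhlhe41 (10067 bp), Robo3 (10051 bp) and Pappa (10039 bp), and the first regions outside were those of Heyl (9945 bp), Grid1 (9945 bp) and Mdga1 (9943 bp). Suz12 regions covered a median of 64.2% of a domain, from 7.5% to 100%, and 237 of the 329 domains (72%) were covered over at least 50% of their length. A single Suz12 region was found in 202 domains, 2 in 97, 3 in 19, 4 in 8 and 5 in 3. Together the domains met 495 of the 2865 listed Suz12 regions (17.3%). Chromosome 2 carried 47 domains, the highest number, and the X chromosome 2.

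The 10 widest domains held genes of body patterning. The widest, chr6:52159116-52278545 (119430 bp), contained all 11 Hoxa genes, which encode homeobox transcription factors that give cells their position along the body axis, and Suz12 regions covered 83% of it. Next came chr2:74646053-74715984 with Evx2, Hoxd3 and Hoxd8 to Hoxd13 (69932 bp) and chr11:96249544-96318789 with Hoxb3 to Hoxb9 (69246 bp). They were followed by the domains of the zinc finger factors Zic1 and Zic4 (chr9:91348485-91410218, 61734 bp), the nuclear receptor Nr2f2 (chr7:70320669-70374586, 53918 bp) and the heart and limb factor Hand2 (chr8:57307974-57353715, 45742 bp). The others were those of Hoxb2 and Hoxb3 (41243 bp), Hoxd4 (38338 bp), Dlx5 and Dlx6, homeobox genes of forebrain and limb (37753 bp), and Pax3, a paired-box factor of neural crest and muscle (36426 bp). Some of these were parts of 1 longer block: only 172 bp lay between the 2 wide Hoxb domains and 4627 bp between those of Hoxd3 and Hoxd4. The authors' deposited list gives each region a value, a p or a false discovery rate. It states neither the groups compared nor the direction, so the value does not measure the level of the mark. It was smallest at Nr2f2 (9.27e-229), followed by Hoxc11 and Hoxc12 (1.16e-209), Hoxd4 (3.89e-207), Pax3 (8.37e-206) and Hand2 (1.29e-204). The highest number of Suz12 regions, 5, was found at the Hoxa cluster, at Zic1 and Zic4, and at the T-box gene Tbx15.

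**Figure D1:**
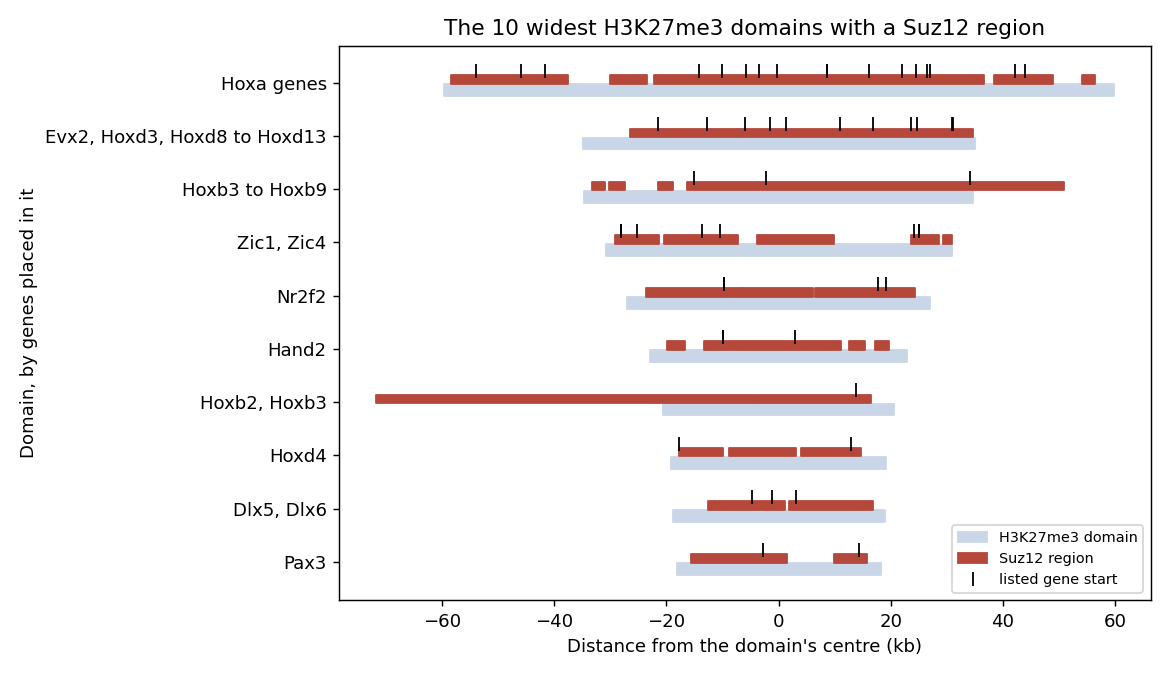
The 10 widest domains (pale bars), the listed Suz12 regions that meet them (red bars) and the listed gene starts inside them (ticks), by distance from the domain's centre in kb. The Hoxa domain spans 119430 bp and meets 5 Suz12 regions; a single Suz12 region runs across the gap between the 2 Hoxb domains.

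Transcription factor genes were a large minority in the domains. By name, 187 of the 464 domain genes (40.3%) belonged to a transcription factor family, against 4.02% of the genes in narrower Suz12 regions, 1.18% of those in regions without Suz12 and 1.51% of all 26171 symbols; the families were drawn up with earlier results of these data known. Of the 12 LIM homeobox genes measured, 11 lay in a broad domain, as did 32 of 39 Hox genes, 5 of 6 Dlx, 5 of 6 Irx, 7 of 9 Pax, 4 of 6 Gata, 9 of 14 Nkx and 10 of 16 T-box genes. The Hox genes outside were Hoxc4, Hoxc5, Hoxc6, Hoxc8, Hoxc9 and Hoxc10, and Hoxd1, which was in a narrower Suz12 region. Sox genes (5 of 19) and Fox genes (16 of 44) were found there in smaller shares, and 246 domain genes (53%) were in none of the families and lists used. Ligands and secreted inhibitors numbered 16 (3.45% of domain genes), close to their 3.25% of genes in narrower regions. Ion channels and transporters made up 6.5% of genes in the narrower Suz12 regions and 0.431% of domain genes (2 genes). Most domains were built around 1 gene: 252 of 329 held a single protein-coding gene by this placement, 45 held none and 25 held 2.

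In ESC without Suz12, calls among the domain genes were mostly rises, though most of the genes were not called. In the authors' deposited table of ESC KO vs WT, 163 of 464 were higher (35.1%) and 6 lower (1.29%), where 11.0% of all genes with an adjusted p were higher and 7.27% lower. Over all symbols listed, with or without an adjusted p, these shares were 7.11% and 4.7%. The median log2 fold change of the domain genes was 1.90, with 90.4% of estimates above 0, against 0.71 for genes in narrower Suz12 regions, 0.41 for those in regions without Suz12 and 0.06 for all genes. An adjusted p was given for 313 of the 464, and 47 had no read in any library; since a gene silent in WT gets an adjusted p mostly where it is expressed in KO, the 313 are not a sample of the domain genes. Levels were low, with a median baseMean of 11.2 against 35.5 over all symbols.

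Few domain genes were both called and well expressed. By the naming rule, which asks for a baseMean of at least 403 here (the median of genes with an adjusted p), 6 genes qualified as rises, of which 5 are described here, and none as a fall. Tbx3, a T-box factor of pluripotent cells and limb, had the largest log2 fold change (3.10 ± 0.27 SE, adjusted p 2.38e-28, baseMean 4032). Foxd3, a forkhead factor of pluripotent cells and neural crest, followed with 1.87 ± 0.21 (4.21e-17), and the phosphatase gene Lhpp with 1.55 ± 0.23 (1.46e-09). Olig2, a bHLH factor of oligodendrocyte and motor neuron precursors, rose by 1.27 ± 0.32 (0.00084) and Zic2 by 0.75 ± 0.20 (0.00285), all in the authors' deposited table. Foxd3 and Olig2 are the promoters with 25 CpG each printed above. The other rises named here were chosen after their values were seen, as those with the largest statistics. They included Cbln1, a synaptic organiser (4.16 ± 0.28, baseMean 313), Hoxd13 (4.09 ± 0.31, baseMean 225), the imprinted deiodinase gene Dio3 (6.48 ± 0.51, baseMean 353) and the cell cycle inhibitor gene Cdkn2a (2.88 ± 0.29, baseMean 389).

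By family, 25 of 32 Hox genes were higher in ESC KO and none lower, with a median log2 fold change of 4.03 in the authors' deposited table. T-box genes were higher in 9 of 10 cases (median 3.44), LIM homeobox genes in 6 of 11, Pax genes in 4 of 7, Fox genes in 7 of 16 and Gata genes in 2 of 4. Ligands and secreted inhibitors were higher in 3 of 16 cases and lower in 1, and their median was 1.43. The 6 genes that fell, also chosen after their values were seen, had baseMean of 61.1 to 233. They included Insm1, a zinc finger factor of neuronal and endocrine precursors (-1.91 ± 0.40), Bhlhe41, a repressor of the circadian clock (-1.88 ± 0.42), Ltb, a cytokine (-1.70 ± 0.54), the Notch ligand Dll1 (-1.22 ± 0.37) and Tmem59l (adjusted p 0.00281).

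**Figure D2:**
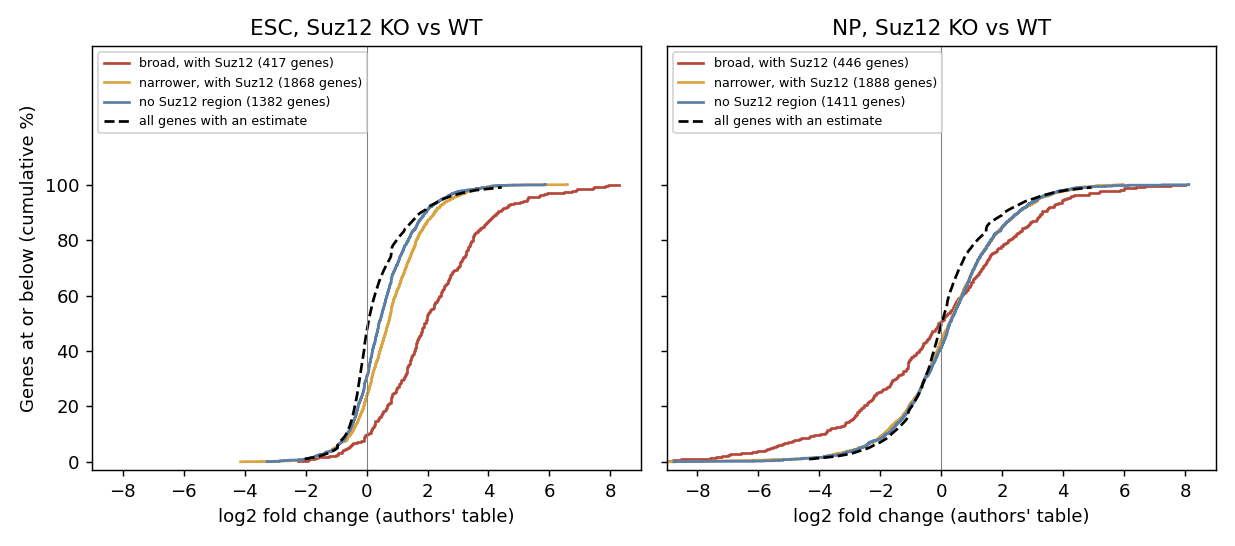
Cumulative share of genes (%, y axis) at or below a log2 fold change (x axis) in the authors' tables of KO vs WT in ESC (left) and NP (right), for genes placed in broad domains with Suz12, in narrower regions with Suz12, in regions without Suz12, and for all genes (dashed). In ESC the curve of broad domains lies to the right, with a median of 1.90, while in NP it is wider on both sides with a median of -0.10.

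The median fold change in ESC KO was larger in the widest domains, with little difference between the 2 narrower width classes, and in more fully covered ones. Median log2 fold change was 1.61 in the 166 domains under 15000 bp (188 genes), 1.70 in the 121 domains from there to 25000 bp (168 genes) and 3.29 in the 42 wider ones (108 genes). With the Hox genes left out it was 1.61, 1.72 and 2.71. The share of genes called higher was 31.4%, 31% and 48.1% in the 3 width classes. Without the Hox genes it was 30.6%, 31.1% and 36.7%. By Suz12 cover the medians were 1.13 where regions covered under 50% of the domain, 2.19 from 50% to 75%, and 2.54 above that. Of the genes with a listed start, 289 started inside a Suz12 region (median 1.97) and 15 started outside one (median 0.49). Width and cover are values the domains were chosen by or close to them, genes of 1 domain are not independent, and these medians carry no test.

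Across the 10 widest domains, Hand2 (6.74 ± 1.40, adjusted p 3.63e-05), Nr2f2 (4.01 ± 0.87, 8.67e-05), Pax3 (3.40 ± 0.93, 0.00304) and Zic1 (2.66 ± 0.74, 0.00363) were higher in ESC KO in the authors' deposited table. Their baseMean was 15.9 to 22.5, so all 4 remained weakly expressed on average over the libraries. Dlx6 was higher too (4.84 ± 1.77, 0.0374), whereas Dlx5 had 4.66 ± 1.84 and an adjusted p of 0.0584, and Zic4 and Evx2 had baseMean of 1.31 and 0.47 and no adjusted p.

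In NP the same genes went both ways. In the authors' deposited table of NP KO vs WT, 79 of the 464 domain genes were higher (17%) and 113 lower (24.4%), where 11.6% of all genes with an adjusted p were higher and 9.85% lower. Over all symbols these shares were 7.25% and 6.18%. The share of higher genes was about the same in narrower Suz12 regions (17.3%) and in regions without Suz12 (15%). The share of lower genes was 10.9% and 9.47% there. The median log2 fold change was -0.10, with quartiles of -2.07 and 1.63 against -0.71 and 0.83 over all genes, and it was 0.32 over protein-coding domain genes alone. Median baseMean of the domain genes was 89.5 in this table, and 377 had an adjusted p.

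By the naming rule the largest rises in NP KO were Hoxb13, the most posterior Hoxb gene (5.18 ± 0.38, adjusted p 1.78e-38), Cdkn2a (3.70 ± 0.38, 4.93e-20), the zinc finger factor genes Gata2 (2.42 ± 0.39, 1.95e-08), Gata3 (2.15 ± 0.54, 0.00076) and Gata4 (1.85 ± 0.35, 3.21e-06), the endoderm factor genes Foxa1 (2.31 ± 0.43, 1.51e-06) and Foxa2 (2.21 ± 0.46, 2.55e-05), and Tbx3 (1.57 ± 0.42, 0.00204). All 4 Gata genes of the domains and 7 of 16 Fox genes were higher, and 1 Fox gene was lower. The largest falls were those of the neural factor Rfx4 (-9.76 ± 0.95, 2.16e-22), the dorsal neural tube gene Msx3 (-7.81 ± 1.68, 5.19e-05), the microRNA host gene Mir9-3hg (-6.55 ± 0.56, 3.96e-29), the axon guidance receptor gene Robo3 (-6.43 ± 0.54, 1.47e-29), the proneural factor gene Neurog1 (-6.20 ± 0.49, 7.46e-34), C130071C03Rik (-5.79 ± 0.49, 6.89e-30), Hoxd3 (-5.40 ± 0.41, 1.1e-36) and the neural POU factor gene Pou3f2 (-5.23 ± 0.38, 3.34e-39), all from the authors' deposited table. Of the 7 Pax genes 4 fell and 1 rose, of the 5 Irx genes 4 fell, and of the 13 bHLH genes 5 fell and 2 rose.

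Within the smaller families the members differed from each other in NP KO. Every measured Pax and Irx gene of the domains is given here, with families picked after their values were seen. In the authors' deposited table of NP KO vs WT the dorsal and midbrain factor genes Pax3 (-2.70 ± 0.45), Pax5 (-5.62 ± 0.70) and Pax7 (-4.78 ± 0.64) and the neural progenitor and eye factor gene Pax6 (-2.84 ± 0.37) were lower. Pax1, a factor of the sclerotome, was higher (3.70 ± 1.24), and Pax2 (-0.44 ± 0.51) and Pax9 (2.29 ± 0.91) were not called. In ESC KO, Pax1, Pax2, Pax3 and Pax9 were higher, with log2 fold changes of 2.53 to 3.59, and Pax6 had -0.82 ± 0.50 without a call. The Iroquois homeobox genes Irx1 (-1.60 ± 0.54), Irx2 (-1.25 ± 0.45), Irx5 (-3.65 ± 0.48) and Irx6 (-4.30 ± 1.23) were lower in NP KO, and Irx4 had 1.38 ± 0.76 without a call. For Irx1 and Irx2, which were higher in ESC KO (3.17 ± 0.93 and 1.38 ± 0.39), the difference between NP and ESC was -4.77 ± 1.07 (adjusted p 0.0003) and -2.63 ± 0.60 (0.000324). Of the 11 LIM homeobox genes, Isl2 was higher in NP KO (2.47 ± 0.75), and Lhx1 (-3.82 ± 0.55) and Lhx5 (-3.79 ± 0.65), factor genes of spinal interneurons, were lower. Lhx4 had no adjusted p, and the others were not called. Of the 10 T-box genes, Tbx3, Tbx15, Tbx18 and Tbx20 were higher in NP KO, and the limb and heart gene Tbx5 was lower (-2.63 ± 0.79) after a rise in ESC KO (4.25 ± 1.04).

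The 16 ligand genes of the domains also went both ways in NP KO, with 3 higher, 3 lower and a median log2 fold change of 0.24. Sonic hedgehog (Shh), the ventral patterning signal of the neural tube, was higher (3.13 ± 0.54, adjusted p 2.35e-07), as were Wnt10a (4.84 ± 0.97) and Wnt11 (1.56 ± 0.55). Wnt1, a signal of the dorsal neural tube and midbrain, was lower (-6.90 ± 0.55, 1.41e-32), as were Wnt3 (-1.36 ± 0.53) and Dll1. In ESC KO the higher ligand genes in the authors' deposited table were Bmp7 (1.57 ± 0.35), Wnt5a (1.43 ± 0.50) and Wnt11 (1.66 ± 0.61). Shh had a baseMean of 1.31 in that table and no adjusted p, and for Wnt1 no read was counted, so the ESC effect of neither can be read. Of the 5 receptor genes none was higher and 3 were lower in NP KO: Fgfr3, a growth factor receptor of neural progenitors (-2.03 ± 0.44), and the axon guidance receptor genes Robo3 and Unc5a (-3.13 ± 0.42). Unc5a was higher in ESC KO (1.83 ± 0.49), and its difference between NP and ESC was -4.96 ± 0.65 (adjusted p 7.43e-12).

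Markers of cell types moved in the same table. Of the 8 neural precursor markers 7 were lower in NP KO (median log2 fold change -3.25, summed baseMean 16098), and 1 of the 8 lies in a broad domain. Trophoblast markers were higher for 4 of 6 (median 1.83, summed baseMean 31439), primitive endoderm markers for 2 of 5 (0.87, 11098), and pluripotency markers for 2 of 8, with 1 lower. Of the 5 primitive endoderm markers 3 are domain genes, and the 2 higher ones, Gata4 and Gata6, are among them. Of the 6 trophoblast markers 1 is a domain gene, Cdx2, which was higher. These overlaps hold wherever the lists are used below. In bulk RNA, fewer cells of a type and less RNA per cell cannot be told apart. The part of these marker changes in the domain genes' values was not tested. In ESC KO none of the 8 neural markers was called, and 4 of 8 pluripotency and 2 of 6 trophoblast markers were higher.

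Hox clusters split inside single domains. Of the 273 domains with a gene that had an adjusted p in NP KO vs WT, 63 held higher genes with no lower one, 78 the reverse, and 3 held both; 23 domains had 2 or more called genes. The 3 mixed domains were the Hoxa, Hoxd and Hoxb clusters named above. In the Hoxa domain, Hoxa9 (3.14 ± 0.70), Hoxa10 (4.74 ± 0.56) and Hoxa11 (6.68 ± 1.24) were higher, and Hoxa2 (-3.18 ± 0.44), Hoxa3 (-2.76 ± 0.40), Hoxa4 (-2.25 ± 0.40), Hoxa5 (-1.93 ± 0.39) and Hoxa6 (-5.01 ± 0.46) were lower in the authors' deposited table. Hoxa7 (-1.03 ± 0.55) and Hoxa13 (2.75 ± 1.17) were not called. In the Hoxd domain, Hoxd9 (4.14 ± 0.51), Hoxd10 (6.39 ± 1.18), Hoxd11 and Hoxd13 were higher and Hoxd3 was lower, as was Hoxd4 (-4.67 ± 0.37) in the domain next to it. In the Hoxb domain the mixed call rested on Gm53, a noncoding gene, since its 7 Hox genes were all lower. Over the 4 clusters, 15 of the 18 domain Hox genes with paralog numbers up to 8 were lower and none higher, and 11 of the 14 with numbers 9 to 13 were higher and 1, Hoxb9 (-2.37 ± 0.41), lower; this split was chosen after the values were seen. In ESC KO the same 32 genes all had positive log2 fold changes, from 1.30 to 7.93. Several noncoding genes of the clusters overlap Hox genes, and as the sources used here do not say whether reads were counted by strand, their reads cannot be told apart with certainty.

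**Figure D3:**
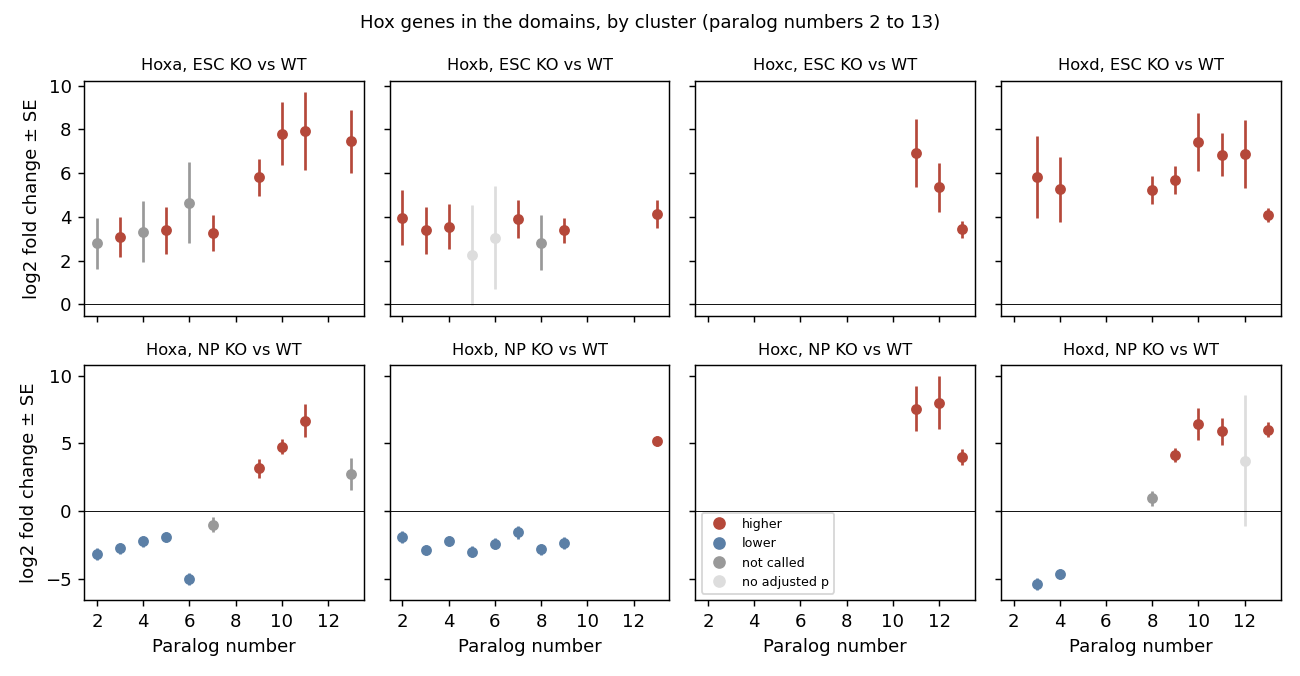
Log2 fold change ± SE (y axis) of Hox genes in broad domains with paralog numbers from 2 up against paralog number (x axis), by cluster (columns), for KO vs WT in ESC (top) and NP (bottom) in the authors' tables; colours give the call at an adjusted p under 0.05. In ESC all 30 points lie above 0, while in NP 15 of the genes shown were lower and 11 higher, with the higher ones at paralog numbers 9 to 13.

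Effects of the knock-out were compared between ESC and NP, whose tables share no sample. Of the 163 genes higher in ESC KO, 51 were higher in NP KO (31.3% of the ESC list, 64.6% of the 79 in NP) and 36 were lower (22.1% of the ESC list, 31.9% of the 113 in NP). The difference of the log2 fold changes was tested per gene from the authors' SE, with Benjamini-Hochberg adjustment over 20188 genes. For 112 of 414 domain genes the effect in NP was below that in ESC and for 7 it was above, where 5.49% of all genes lay below and 4.16% above. Levels differed between the tables: median baseMean of the domain genes was 11.2 in ESC KO vs WT and 89.5 in NP KO vs WT. A gene with few reads in WT ESC has little room to fall there, while one expressed in WT NP can rise or fall. The part of these levels in the 112 and 7 was not tested. Neurog1 went from 5.92 ± 1.14 in ESC to -6.20 ± 0.49 in NP, a difference of -12.12 ± 1.24 (adjusted p 2.01e-19). Pou3f2 went from 4.56 ± 1.10 to -5.23 ± 0.38 (difference -9.79 ± 1.16, 2.4e-14) and Mir9-3hg from 1.36 ± 0.38 to -6.55 ± 0.56 (difference -7.92 ± 0.68, 9.38e-28). Hoxb13 and Cdkn2a rose in both, with differences of 1.05 ± 0.75 (adjusted p 0.525) and 0.82 ± 0.48 (0.37). The 7 genes with the higher effect in NP included Bhlhe41, Foxe1, Hoxd13, Ltb, Nkx2-9 and Tmem59l, and 4 of the 7 were among the 6 genes that fell in ESC KO. Insm1 and Dll1, the other 2 of these 6, fell in NP KO as well, with log2 fold changes of -5.15 ± 0.66 and -3.74 ± 0.52.

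**Figure D4:**
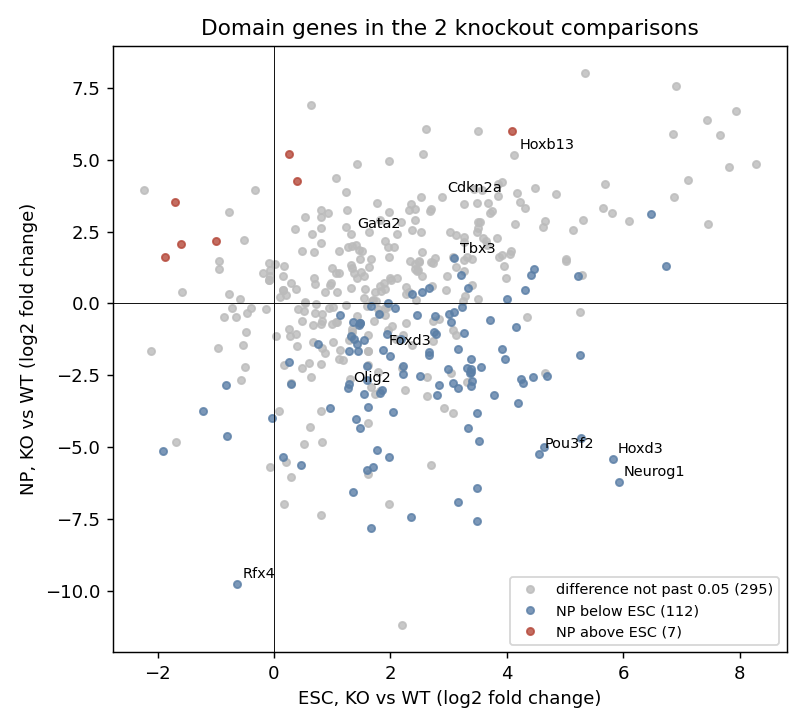
Log2 fold change of domain genes in ESC KO vs WT (x axis) and NP KO vs WT (y axis) from the authors' tables, 1 point a gene; colour gives the test of the difference. Of the 112 genes whose log2 fold change was lower in NP, 92 lie at the lower right, where ESC KO is above and NP KO below WT.

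The remaining ESC tables share their WT samples with ESC KO vs WT, so their values are set side by side only. In the samples labelled KO-L3D, 69 domain genes were higher and 5 lower (background 8.22% higher and 10.1% lower), with a median log2 fold change of 1.77. Hand1, a trophoblast and heart factor gene, had 6.08 ± 0.36 there and the imprinted growth factor gene Igf2 4.56 ± 0.37, while Dmrt1 fell (-1.54 ± 0.37). For the same samples 4 of 6 trophoblast markers were higher too (summed baseMean 13650), and their part in the domain genes' values was not tested. KO-S3D had 14 higher and 1 lower (background 2.05% and 1.18%; median 1.02), led by Tbx3 (2.96 ± 0.36) and Foxd3 (2.21 ± 0.39). KO-L had 18 higher and 1 lower (1.46% and 0.771%; median 1.31), with Igf2 (2.18 ± 0.29) and Zic2 (1.18 ± 0.33) named by the rule. KO-S had 26 higher and 13 lower (4.28% and 3.63%; median 0.03): Islr2 (4.21 ± 1.31) and Tbx3 (2.84 ± 0.33) rose, and the imprinted adaptor gene Grb10 (-3.15 ± 0.26) and Dmrt1 (-2.03 ± 0.33) fell. CSex4 had 12 higher and 1 lower (1.72% and 0.695%; median 0.89), with Igf2 at 2.32 ± 0.44. Deltaex4 had none in either direction (0% and 0% of all genes, median -0.22) in the authors' deposited DESeq2 table. There 6 domain genes had an unadjusted p under 0.05, as did 135 of the 20263 genes with an estimate. With so few low p-values over all genes, the absence of calls does not show that the domain genes were unchanged. As shares of the 464 domain genes, the higher calls came to 14.9% in KO-L3D, 5.6% in KO-S, 3.88% in KO-L, 3.02% in KO-S3D and 2.59% in CSex4, against 4.8%, 2.37%, 0.772%, 1.12% and 0.906% of all symbols in the same tables. In narrower Suz12 regions the shares were 11.2%, 7.17%, 3.92%, 1.75% and 4.18%, and in regions without Suz12 8.99%, 8.3%, 1.73%, 1.66% and 2.56%. Over all listed genes, the share in broad domains was thus below that of the narrower regions in KO-S and CSex4. It was about equal in KO-L. Of genes with an adjusted p, the order was reversed in KO-S (17.9% against 11.2%) and CSex4 (8.82% against 6.8%). In KO-L these shares were 12.8% against 6.31%. An adjusted p was given for 145 of the 464 domain genes in KO-S, 136 in CSex4 and 141 in KO-L. The order thus depends on the genes counted. Cell type markers moved in these tables too: trophoblast markers were higher for 3 of 6 in KO-L (median log2 fold change 1.59, summed baseMean 11765) and in CSex4 (2.11, 19006), feeder fibroblast markers for 2 of 4 in both, and pluripotency markers were lower for 3 of 8 in CSex4 (-0.97). In KO-S 1 of 6 trophoblast markers was lower (median -0.54, summed baseMean 6429) and 1 of 5 primitive endoderm markers higher (3.04, 3303). In KO-S3D 1 of 6 trophoblast markers was higher (1.09, 13888) and 2 of 4 feeder markers lower (-3.43, 270). The part of these marker changes in the domain genes' values was not tested.

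In NP, few domain genes were called after changes of exon 4. CSex4 against WT had 4 higher and 22 lower (background 4.08% and 1.45%; median -0.47): Gata2 (2.13 ± 0.33) and Sfmbt2, a Polycomb-related gene (1.08 ± 0.32), rose, and the netrin receptor gene Unc5a (-1.99 ± 0.39) and Hoxb5 (-1.80 ± 0.40) fell. Pluripotency markers were higher there for 6 of 8 (median log2 fold change 2.47, summed baseMean 36288), neural precursor markers lower for 3 of 8 (-0.91, 21505) and trophoblast markers higher for 2 of 6. The share of lower genes was 4.74% of domain genes and 4.54% of genes in narrower Suz12 regions. Deltaex4 against WT had 3 higher and 3 lower (0.0289% and 0.0520%), among them Dmrt1 (-2.26 ± 0.42). WT against KO, with the other 2 WT samples, had 134 higher and 103 lower (15.6% and 17.3%), led by Rfx4 (10.19 ± 0.90) and Dbx1, a factor gene of spinal interneuron precursors (10.06 ± 0.72), and at the other end by Hoxb13 (-6.78 ± 0.34) and Cdkn2a (-3.77 ± 0.35). KO-L against KO had 79 higher and 107 lower (10.9% and 13.8%): Dmrt1 (3.99 ± 0.27) and Hoxa4 (2.46 ± 0.23) rose, and Pitx1 (-3.20 ± 0.25) and Foxa2 (-3.12 ± 0.24) fell. KO-S against KO had 102 higher and 114 lower (16.4% and 18.0%): Dbx1 (9.95 ± 1.01) and Hoxd3 (4.86 ± 0.25) rose, and Cdkn2a (-3.51 ± 0.19) and Hoxb13 (-2.87 ± 0.20) fell. The percentages in brackets are of all genes with an adjusted p. Of the domain genes, 22.2% were lower in WT, 23.1% in KO-L and 24.6% in KO-S than in KO. Over all symbols these shares were 11.4%, 8.82% and 11.2%. In narrower Suz12 regions they were 24.1%, 23.2% and 22.8%, about equal to those of broad domains. Higher calls were 28.9%, 17% and 22% of domain genes, 10.2%, 6.93% and 10.2% of all symbols, and 19.5%, 12.1% and 16.5% in narrower regions. Neural precursor markers were higher than in KO for 6 of 8 with the long isoform (median log2 fold change 2.11, summed baseMean 7563) and 8 of 8 with the short isoform (2.78, 10323). Pluripotency markers were higher for 5 of 8 and lower for 1 with the long isoform, and higher for 1 and lower for 3 with the short one. Primitive endoderm markers were lower for 3 of 5 and 4 of 5, and trophoblast markers were lower for 3 of 6, with 2 higher, and for 4 of 6. In the second WT set 7 of 8 neural precursor markers were higher than in KO and all 6 trophoblast and 5 of 8 pluripotency markers lower. The part of these marker changes in the domain genes' values was not tested.

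The NP KO group has 2 samples, and both isoform rescues and the second WT set are compared with the same KO samples as in the NP KO table, so a gene measured low in those KO samples tends to appear high against them; none of the counts below is an independent repeat, and they carry no test. Of the 113 domain genes lower in NP KO, 57 were higher with the long isoform and 79 with the short isoform than in KO, with median log2 fold changes of 1.49 and 2.79, and 108 were higher in the second WT set (3.80). Of the 79 genes higher in NP KO, 65 were lower with the long isoform and 64 with the short isoform than in KO (medians -2.85 and -2.79), and 72 were lower in the second WT set (-3.42). Whether the 2 rescues differ from each other was not tested.

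**Figure D5:**
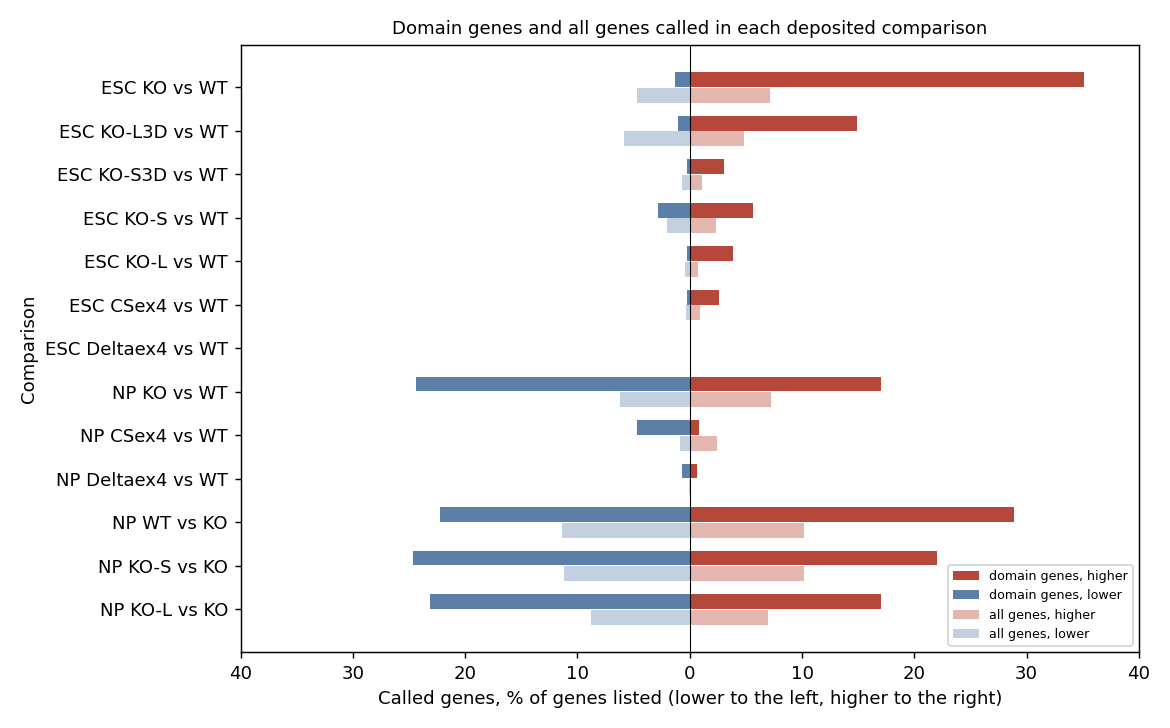
Share of genes called higher (to the right, red) and lower (to the left, blue) at an adjusted p under 0.05 in each of the authors' 13 tables, in % of the genes listed, for the 464 domain genes (dark) and all 26171 symbols (pale). ESC KO has 35.1% of domain genes higher and 1.29% lower, and NP KO 17% higher and 24.4% lower.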

How the data were processed

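RNA-seq and ChIP-seq of mouse ESC and NP were used as the authors' processed files. Per the submitters' processing notes, TopHat, Bowtie, DESeq2 and DiffBind were used with mm10 and dm3; versions and counting rules are not given in the sources used here. Per the file headers, each of the 13 RNA tables gives, for 26171 symbols, the deposited baseMean (a signal: reads scaled by library size and averaged over the libraries), the authors' log2 fold change with its SE, the test score (fold change over SE) and a deposited p-value, plain and adjusted over genes. The 2 region lists carry, per the file headers, a DiffBind value at a false discovery rate of 5%; which groups were compared is not given there. Sample values were not analysed here (0 per-sample columns were left unused), so the authors' tests stood as deposited and none was refitted. The planned paired fits and left-out replicates could not be run.

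Regions were joined by overlap of at least 1 bp. A gene belonged to a domain if a start listed in the RefSeq promoter table (GRCm38.p6) lay in it; for genes with no listed start, either end of the gene had to lie in it, since the gene table gives no strand (304 and 160 of the 464 genes). A first version asked for both ends of such genes (389 genes). It left out Pax3, Gata4 and Hoxb3, and the rule was changed after its expression results had been seen; both versions are compared in the closing section. Promoters on chromosome 18 are not in the table used. CpG observed over expected was the CpG count times length over the product of C and G counts. The difference between ESC and NP effects was a two-sided z-test on the authors' SE (normal approximation), adjusted by Benjamini-Hochberg. It was run on simulated data whose normal errors were drawn from those same SE. That run checks the calculation only, and not whether the SE or the normal approximation hold for these samples. Genes named were the 8 largest rises and falls (2 in the other tables) among called domain genes with a baseMean at or above the table's median, plus genes of the 10 widest domains; exceptions are marked, and a few genes that met the rule are not reported here. The domains, gene families and marker lists were chosen with earlier results of these data known. Depth limits what low genes can show: no read was counted for 47 domain genes in ESC KO vs WT. Python 3.11.15, pandas 2.3.3 and SciPy 1.17.1 were used. Alternatives varied the width minimum, Suz12 cover, gene assignment, Hox domains, level, biotype and threshold.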

Additional observations from a re-analysis of the deposited data

Results flagged for a closer look

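Among the 21 genes that met the naming rule in the knock-out comparisons, the effect of the knock-out differed between ESC and NP for 12 by the test of the difference (adjusted p under 0.05 over 20188 genes). In all 12 the log2 fold change in NP was below that in ESC. The difference was -12.12 for Neurog1, -11.22 for Hoxd3, -9.91 for Robo3, -9.79 for Pou3f2, -9.48 for Msx3, -9.13 for Rfx4, -7.92 for Mir9-3hg and -7.38 for C130071C03Rik, which were named as falls in NP. Named as rises in ESC, Olig2 had a difference of -4.21, Foxd3 of -3.48, Zic2 of -2.15 and Tbx3 of -1.53. Tbx3 rose in both cell types, and Foxd3 was not called in NP (adjusted p 0.0624 in the authors' deposited table). Falls in NP were selected for low values there and rises in ESC for high values there, so the direction of all 12 differences is favoured by the choice of genes. Neural precursor markers were lower in NP KO for 7 of 8 in the same table, and their part in these differences was not tested.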

How the results depend on the processing

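No paired analysis was possible here because the tables hold only the authors' statistics, with no values of samples. For the same reason replicates could not be left out in turn. The authors' comparisons carry the word paired in their names, and what was paired is not stated in the sources used here. Of 494 values under the alternatives 82 moved beyond the 95% interval of the reported value, or beyond 1.5 times for counts, and none turned from a direction that its interval excluded from 0. The interval was computed over the domain genes as if they were independent, which genes of 1 domain are not. It does not measure the spread between samples, so these counts only describe how far the values shifted. With a width minimum of 15000 bp there were 163 domains and 278 genes, with a median log2 fold change in ESC KO of 2.38. With 20000 bp there were 85 domains and 176 genes: 42.6% were higher and 0% lower in ESC KO (median 3.04), and 34.1% were lower in NP KO (median -0.62). With a baseMean of at least 10, 64.6% were higher in ESC KO, and 21.2% were higher and 30.3% lower in NP KO; since baseMean averages WT and KO, a gene silent in WT passes only where it is high in KO, and the filter itself raises the share in ESC. Of protein-coding genes, 44.4% were higher in ESC KO and 21.6% in NP KO. At an adjusted p under 0.01, 28.7% were higher in ESC KO, and 12.5% were higher and 19.8% lower in NP KO. In the NP table with the other 2 WT samples and the sign turned, 22.2% were higher and 28.9% lower. The median in NP KO, -0.10, was 0.03 without the Hox domains, 0.14 with 1 gene per domain and 0.32 for protein-coding genes, so it carries no direction. In 2 alternatives added after seeing the data, genes with a listed start alone numbered 304 (36.5% higher and 1.32% lower in ESC KO, median 1.95), and requiring both ends of unlisted genes left 389 (36%, 1.29% and 1.97). Depth was known only as baseMean over libraries.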
